A study of Mus musculus with 14 samples.

Results

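The genes of the respiratory chain and the ATP synthase were followed through 3 populations of cells sorted from the mouse knee synovium. They comprised 98 protein-coding genes among the 47729 genes of the count table, 85 encoded in the nucleus and 13 in mitochondrial DNA. Membership was decided by gene symbol alone. The nuclear genes were those named Nduf followed by a, b, c, s or v and a digit (complex I, 37 genes), Sdha to Sdhd (complex II, 4 genes), Cyc1 and the Uqcr genes (complex III, 9 genes), the genes beginning Cox4 to Cox8 (complex IV, 18 genes) and the Atp5 genes (complex V, 17 genes). The mitochondrial genes were all protein-coding genes with the prefix mt-, of which 7 belong to complex I, 1 to complex III, 3 to complex IV and 2 to complex V. The symbols are those of GENCODE M21 and a few predate later knowledge. Ndufa4 is now counted as a complex IV subunit, Cox7a2l takes part in assembling supercomplexes, and Atp5s is not a subunit of the enzyme. They were kept where their symbols put them. A 99th annotated gene that met the rule, a second copy of Atp5o, had no row in the table.

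Complexes I to IV pass electrons from NADH and succinate to oxygen through ubiquinone and cytochrome c, and complexes I, III and IV pump protons across the inner mitochondrial membrane. Complex V, the ATP synthase, lets the protons return and makes ATP. Every complex except complex II is built from subunits of both genomes. The mitochondrial subunits form much of the membrane-embedded core, and their mRNAs are cut from long polycistronic transcripts made by a dedicated polymerase, whereas each nuclear subunit has its own promoter and is imported as a protein. The balance between respiration and glycolysis is known to shift as bone-forming cells differentiate.

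All mice were of the C57BL6 strain, 16 weeks old, and no genetic modification is named in the labels. In antigen-induced arthritis the animals were first immunized against mBSA, methylated bovine serum albumin, given in CFA (complete Freund's adjuvant), and later received mBSA into the knee joint. Nonimmunized animals received phosphate buffered saline each time. Joints were taken 10 days after the joint injection. CD200_NI denotes CD31-TER119-CD45-CD51+CD200+CD105- cells of nonimmunized mice (libraries 1 to 4), CD200_AIA the same phenotype from arthritic mice (libraries 5 to 9), and CD105_AIA the CD51+CD200-CD105+ phenotype, also without CD31, TER119 and CD45, from arthritic mice (libraries 10 to 14). CD105+ cells of nonimmunized mice were not analysed here, so arthritis and phenotype cannot be told apart between CD105_AIA and CD200_NI. Each library came from 200 to 500 sorted cells. The labels do not say that the libraries came from separate animals, so the p-values measure the spread between these libraries, which may be partly technical. In such bulk samples, fewer cells of a type and less RNA per cell cannot be told apart.

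Libraries held 12177437 to 40331071 counts, of which 2919666 to 18553803 fell on genes and the rest on the ERCC spike-in RNAs. Spike-ins took over 80% of the counts in library 2 (CD200_NI) and libraries 5 and 6 (CD200_AIA). Haemoglobin transcripts took 2.71% to 18.3% of gene counts in CD105_AIA, with the highest share in library 10, and at most 1.07% in the other groups. Against the sort, Cd200 mRNA was at 430 to 800 CPM (gene counts scaled to a common library size with TMM factors) in CD200_NI, 320 to 544 in CD200_AIA, and without a count in 4 of the 5 CD105_AIA libraries. The mRNA of CD105 itself, Eng, was scarce throughout: 0 to 11.2 CPM in CD105_AIA, with counts in 4 of 5 libraries, 0.317 to 12.3 in CD200_NI and 0 to 1.36 in CD200_AIA. The summed level of 12 osteoblast markers was 46900 to 133324 CPM in CD200_NI and 26215 to 47128 in CD200_AIA but 123 to 1524 in CD105_AIA, where Runx2 had no count. The 15 erythroid markers summed to 29531 to 250212 CPM in CD105_AIA, where all 15 had counts although TER119+ cells were gated out. They summed to 1174 to 10201 in CD200_NI, with Rhag and Gata1 at 0, and to 47.3 to 10439 in CD200_AIA, where 9 of the 15 had counts and Klf1, Gata1 and Tal1 were among those at 0. The 15 cell cycle genes summed to 7119 to 11819 CPM in CD105_AIA, 252 to 492 in CD200_NI and 165 to 1061 in CD200_AIA. The 10 mural cell markers summed to 3.79 to 313 CPM in CD105_AIA, 621 to 1435 in CD200_NI and 820 to 1894 in CD200_AIA. Despite the CD45 gate, library 3 held 6791 CPM of B and plasma cell markers and 7011 of neutrophil markers, and library 11 held 5807 of macrophage markers, against 4.24 to 17.5 in the other CD105_AIA libraries. Between CD200_AIA and CD200_NI no marker was called, but all 12 osteoblast markers and 11 of 15 erythroid markers had log2 differences below 0, with medians of -1.74 and -1.11, and 12 of 15 cell cycle genes had one above 0, with a median of 1.07. At an unadjusted p of 0.05, 2 osteoblast and 6 erythroid markers were lower, 1 erythroid marker was higher and 3 cell cycle genes were higher. At that p, 2 B and plasma cell, 2 neutrophil, 1 macrophage and 1 endothelial marker were also lower. The osteoblast, erythroid, cell cycle and mural sums thus set CD105_AIA apart from both CD200 groups. Between CD200_AIA and CD200_NI these sums overlapped, beside the leanings given above. The 10 synovial fibroblast markers overlapped among all 3 groups, at 3482 to 7122 CPM in CD200_NI, 764 to 7936 in CD200_AIA and 2117 to 8735 in CD105_AIA. The part of marker levels in the results was not tested.

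By their median log2 difference relative to all genes, the nuclear genes lay higher and the mitochondrial genes lower in CD105_AIA than in either CD200 group. The 85 nuclear genes summed to 21003 ± 5187 CPM in CD200_NI (SD, n = 4), 31947 ± 6956 in CD200_AIA (SD, n = 5) and 47395 ± 12592 in CD105_AIA (SD, n = 5). The 13 mitochondrial mRNAs summed to 46247 ± 22043, 53348 ± 18062 and 33839 ± 5546 CPM in the same order. The ratio of mitochondrial to nuclear counts, which does not depend on how libraries are scaled, was 3.09, 1.40, 1.39 and 2.85 in CD200_NI. It was 1.81, 1.10, 2.14, 1.46 and 1.88 in CD200_AIA, and 0.403, 0.934, 1.24, 0.591 and 0.740 in CD105_AIA. All 5 CD105_AIA libraries lay below all CD200_NI libraries, and 4 of them lay below all CD200_AIA libraries. The exception was library 12, at 1.24, against library 6, at 1.10.

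**Figure D1:**
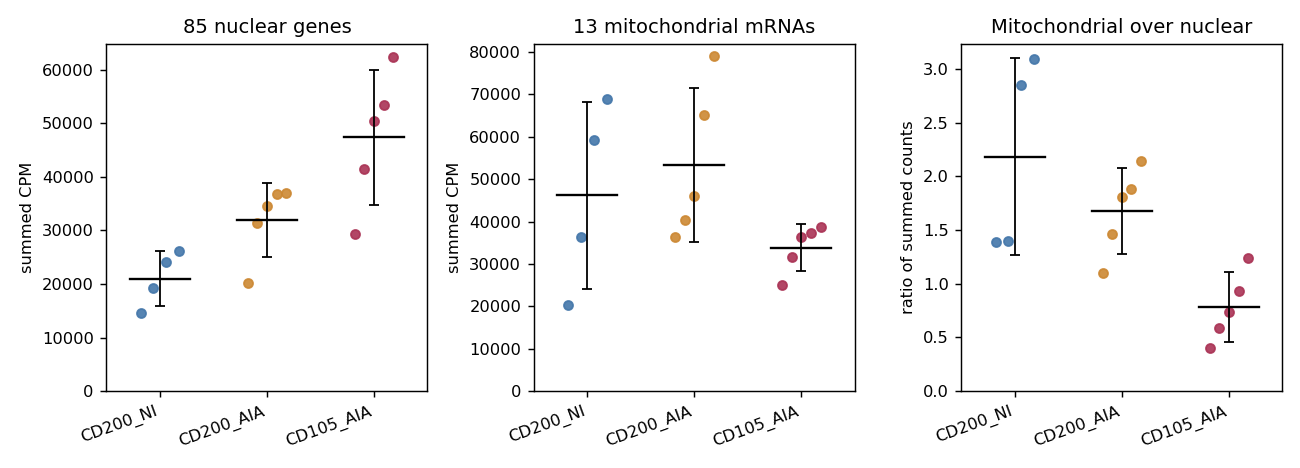
Summed CPM of the 85 nuclear genes (left), summed CPM of the 13 mitochondrial mRNAs (middle) and the ratio of their counts (right) in each library, with 1 point per library, a horizontal line at the group mean and bars of 1 SD. The mean ratio is 2.18 in CD200_NI, 1.68 in CD200_AIA and 0.782 in CD105_AIA, and the nuclear sum has its highest mean in CD105_AIA.

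By complex, the nuclear sums had the same order of means, but complex II alone was separate in CD105_AIA from both CD200 groups, while complexes III and V were separate from CD200_NI only. The 4 genes of complex II, which is also the succinate dehydrogenase of the citric acid cycle, summed to 1562 to 2028 CPM in CD105_AIA, 814 to 1216 in CD200_AIA and 675 to 1119 in CD200_NI. For the 37 nuclear genes of complex I the means were 8027 ± 2401, 12406 ± 2388 and 16744 ± 4924 CPM in CD200_NI, CD200_AIA and CD105_AIA (SD), and the ranges of the last 2 groups overlapped. Library 12 was the lowest CD105_AIA library for nuclear complexes I, III, IV and V. For complexes III, IV and V it alone reached into the range of CD200_AIA. The other CD105_AIA libraries were at 5722, 8760 and 10893 CPM or above, against at most 4903, 7885 and 9654 in CD200_AIA. In complex II, Sdha had its highest CD105_AIA level in library 12, at 680 CPM. The separation of complex II is therefore not particular to it beyond library 12. Among mitochondrial mRNAs, complex III (mt-Cytb alone) was at 8353, 8765 and 4247 CPM and the 3 complex IV genes were at 21390, 24967 and 20000 CPM, as group means in the same order.

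Per kilobase of transcript, the mitochondrial mRNAs were the more abundant class. The median level of the 13 was 2172, 3120 and 1532 CPM per kilobase in CD200_NI, CD200_AIA and CD105_AIA, against 238, 350 and 473 for the 85 nuclear genes. The mRNA with the highest level over all groups was mt-Co3, a core subunit of cytochrome c oxidase, at 8962, 13717 and 7543 CPM per kilobase. The nuclear genes with the highest level per kilobase averaged over the groups were Uqcr11 of complex III, at 1524, 2553 and 3991, and Cox6a1 of complex IV, at 1723, 1910 and 4295. For complexes I, II and V they were Ndufa2 (1177, 1518 and 1607), Sdhb (257, 399 and 530) and Atp5mpl (706, 1406 and 1819). The order differed by group: in CD105_AIA Ndufb9 (1910) and Sdhd (549) stood above Ndufa2 and Sdhb, and in CD200_NI Atp5h (739) stood above Atp5mpl. In CD200_AIA Cox8a (2022) stood above Cox6a1.

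Comparing CD200_AIA with CD200_NI asks what arthritis did to these genes within 1 phenotype. No member passed edgeR's quasi-likelihood test at an adjusted p of 0.05, as no gene in the table did (0 of 15015, 0.0%). The nuclear genes were nonetheless mostly on the high side in arthritis. The log2 change was above 0 for 73 of the 83 nuclear genes tested, against 44.9% of all genes tested, and the median was 0.65 against -0.10 for all genes. At an unadjusted p of 0.05, 23 nuclear genes were higher and none was lower, where 3.22% of all genes were higher and 2.88% lower. DESeq2 and limma voom each called 1 nuclear member, Cox8b, among 347 of 25864 and 4 of 15015 genes called in all. The 13 mitochondrial mRNAs had a median of 0.07, with 0 called by any of these tools and 1, mt-Atp6, at an unadjusted p of 0.05. The sign of that median turned negative under several settings, and relative to the median of all genes it was 0.17 here, 0.17 with RLE size factors and 0.23 with spike-in library sizes. With DESeq2, without library 2, without library 3 and without libraries 2 and 12, it lay below the median of all genes.

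The 6 nuclear genes whose CD200_AIA libraries all lay above all CD200_NI libraries were Atp5g1, Cox7b, Ndufa4, Ndufa5, Ndufb6 and Ndufs3, where 1.11% of all genes did so. No member lay wholly below, where 1.18% of all genes did. Ndufs3, a core subunit of the complex I arm that takes electrons from NADH, had the smallest p in complex I. It was at 65.1, 97.6, 111 and 56.3 CPM in CD200_NI and at 140, 326, 124, 181 and 178 in CD200_AIA. The log2 difference was 1.20 ± 0.32 (SE; edgeR adjusted p = 0.636), and library 6 stood above the other arthritic libraries. Atp5g1, one of 3 genes for subunit c of the ATP synthase rotor, was at 282, 273, 418 and 374 CPM against 501, 598, 645, 755 and 643 in CD200_AIA. Its log2 difference was 0.90 ± 0.28 (SE; edgeR adjusted p = 0.636). The smallest p in complexes II and III belonged to Sdhd, at a log2 difference of 0.92 ± 0.30, and Uqcrfs1, at 0.84 ± 0.35 (SE; edgeR adjusted p = 0.636 and 0.68). Sdhd is a membrane anchor of succinate dehydrogenase and Uqcrfs1 the Rieske iron-sulfur protein. Neither was separate between the groups.

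Comparing CD105_AIA with CD200_AIA asks how the phenotypes differ within arthritic joints. Of the 83 nuclear genes tested, 11 were called higher in CD105_AIA, where 4.79% of all genes were. They were Ndufa9 and Ndufb9 (complex I), Sdhd (II), Cyc1, Uqcrc1 and Uqcrfs1 (III), Cox6a1 (IV), and Atp5b, Atp5d, Atp5f1 and Atp5g1 (V). A single nuclear gene was called lower, Cox8b, where 6.48% of all genes were. Over all 83, 67 had a log2 difference above 0 (48.8% of all genes), with a median of 0.45 against -0.05. Of the mitochondrial mRNAs, 3 of 13 were called lower (mt-Cytb, mt-Atp6 and mt-Nd3) and none higher. No mitochondrial mRNA was higher at an unadjusted p of 0.05, as 11.3% of all genes were, or by DESeq2 or limma voom. At that p 7 of them were lower, as 15.5% of all genes were. The log2 difference was below 0 for 12 of 13, with a median of -0.80. CD200_AIA also enters the comparison with CD200_NI, and the 2 sets of values are therefore not independent.

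Cyc1 encodes cytochrome c1, which hands electrons from complex III to cytochrome c (GRCm38 chromosome 15, 76343523 to 76346260, plus strand). It was at 102, 194, 244 and 137 CPM in CD200_NI, at 136, 131, 252, 298 and 277 in CD200_AIA, and at 752, 506, 617, 641 and 571 in CD105_AIA. The lowest CD105_AIA library lay above the highest of both CD200 groups. The log2 difference was 1.5 ± 0.30 from CD200_AIA and 1.87 ± 0.33 from CD200_NI (SE; edgeR adjusted p = 0.00768 and 0.00343). Sdhd (chromosome 9, 50596357 to 50603812, minus strand) was at 202, 118, 186 and 118 CPM in CD200_NI, at 337, 183, 219, 411 and 327 in CD200_AIA, and at 986, 634, 579, 657 and 521 in CD105_AIA. Here too the CD105_AIA libraries were separate from both groups. Its log2 differences were 1.19 ± 0.28 and 2.11 ± 0.31 (SE; edgeR adjusted p = 0.0156 and 0.000989).

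Ndufa9, an accessory subunit of complex I near the junction of its arms (chromosome 6, 126821721 to 126849136, minus strand), was at 101, 125, 110 and 85.3 CPM in CD200_NI, at 24.3, 158, 134, 89.5 and 124 in CD200_AIA, and at 435, 276, 286, 282 and 274 in CD105_AIA. Library 10 stood apart within CD105_AIA, and the other 4 libraries were close together. The log2 differences were 1.55 ± 0.39 and 1.56 ± 0.42 (SE; edgeR adjusted p = 0.0207 and 0.0264). Atp5f1, subunit b of the ATP synthase stalk (chromosome 3, 105942698 to 105960099, minus strand), was at 317, 167, 367 and 302 CPM in CD200_NI, at 289, 347, 359, 240 and 338 in CD200_AIA, and at 1334, 617, 467, 577 and 726 in CD105_AIA. The CD200 groups overlapped each other and lay below all CD105_AIA libraries. The log2 differences were 1.24 ± 0.30 and 1.37 ± 0.32 (SE; edgeR adjusted p = 0.0177 and 0.0147). Its exons share 337 bases with Wdr77 on the other strand, and since no source used here says whether counting used strand, reads there cannot be assigned with certainty.

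**Figure D2:**
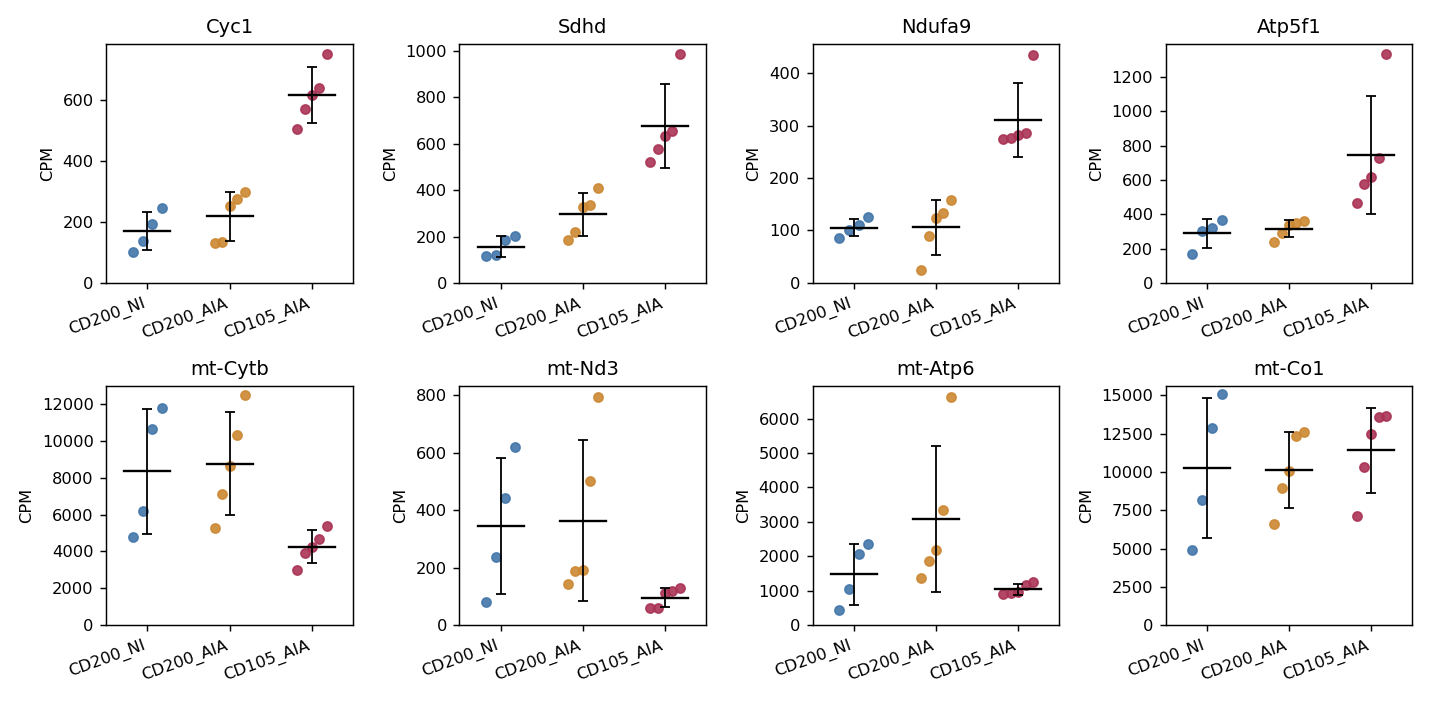
CPM of 4 nuclear genes (top row) and 4 mitochondrial mRNAs (bottom row) in each library, 1 point per library, with a line at the group mean and bars of 1 SD; each panel has its own linear axis from 0. All 5 CD105_AIA libraries lie above both CD200 groups for the 4 nuclear genes, while for mt-Cytb, under this scaling, 4 of the 5 lie below both CD200 groups, and for mt-Co1 the groups overlap.

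The other nuclear genes called higher against CD200_AIA had log2 differences between 0.92 and 1.87. In complex III, Uqcrc1, a core protein, was 1.87 higher (edgeR adjusted p = 0.0411), and library 2 of CD200_NI, at 638 CPM, reached the level of the CD105_AIA libraries (601 to 1470). Uqcrfs1 was 1.12 higher (edgeR adjusted p = 0.0406). In complex V, the catalytic subunit gene Atp5b was 1.74 higher (edgeR adjusted p = 0.0237), Atp5d of the central stalk 1.05 higher (0.0261) and Atp5g1 0.92 higher (0.0376). In complex I, Ndufb9 was 1.21 higher (edgeR adjusted p = 0.0427), and in complex IV Cox6a1, the broadly expressed form of subunit VIa, was 1.17 higher (0.035). Nuclear members whose CD105_AIA libraries all lay above all CD200_AIA libraries numbered 13, where 10.4% of all genes did so.

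The gene calls rested on few libraries. Of the 11 nuclear genes, 4 (Cyc1, Sdhd, Ndufa9 and Atp5f1) were called in all 10 fits that left out 1 library. The count of nuclear members called, 12 in either direction, became 7 without library 5, 6 without library 7, 4 without library 9, 5 without library 10, 5 without library 13 and 6 without library 14. Of all genes, 1692 of 15015 were called in the full fit. In these fits 1599, 1289, 1257, 1200, 1137 and 1090 were called, of 14670 to 14928 tested. With library sizes taken from the spike-ins no nuclear or mitochondrial member was called in either comparison of CD105_AIA. Of all 15015 genes, 545 were called against CD200_AIA and 278 against CD200_NI under that scaling. It moved the median of all genes to 1.22 against CD200_AIA and 1.21 against CD200_NI. Relative to those medians, the nuclear median was 0.47 and 1.22 and the mitochondrial median -0.97 and -0.44.

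Of the mitochondrial mRNAs, mt-Cytb encodes cytochrome b, the only mitochondrially encoded subunit of complex III (chromosome M, 14145 to 15288, plus strand). It was at 11803, 4786, 6178 and 10644 CPM in CD200_NI, at 5291, 7104, 10298, 8647 and 12484 in CD200_AIA, and at 2986, 4680, 5398, 4257 and 3915 in CD105_AIA. Only library 12 of CD105_AIA reached into the range of the CD200 libraries. The log2 difference was -1.05 ± 0.29 from CD200_AIA and -0.98 ± 0.31 from CD200_NI (SE; edgeR adjusted p = 0.035 and 0.0499). With spike-in library sizes these were 0.06 and 0.28, both below the median of all genes under that scaling.

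mt-Nd3, a small membrane subunit of complex I, was at 441, 80, 237 and 619 CPM in CD200_NI, at 144, 192, 794, 188 and 502 in CD200_AIA, and at 58.0, 130, 112, 60.2 and 119 in CD105_AIA. Its CD105_AIA libraries lay below all CD200_AIA libraries, where 6.33% of all genes did so, but library 2 of CD200_NI was within their range. The log2 difference from CD200_AIA was -1.92 ± 0.58 (SE; edgeR adjusted p = 0.0462). mt-Atp6, the proton channel subunit of the ATP synthase, was at 2066, 451, 1039 and 2360 CPM in CD200_NI, at 6630, 1864, 3336, 1383 and 2195 in CD200_AIA, and at 899, 1171, 967, 927 and 1251 in CD105_AIA. It too lay below all CD200_AIA libraries and overlapped CD200_NI. The log2 difference from CD200_AIA was -1.56 ± 0.46 (SE; edgeR adjusted p = 0.0442), and library 5 held the highest value by far. With spike-in library sizes it was 0.16, below the median of all genes there. The 3 mitochondrial calls fell to 0 without library 7, 9, 10, 11, 13 or 14 in turn, and to 1 without library 12. Leaving out the libraries over 80% spike-ins gave 7, where 1970 of 15843 genes were called.

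Of the other mitochondrial mRNAs, mt-Nd2, at 2988, 478, 1746 and 3652 CPM in CD200_NI, 2068, 839, 3498, 2154 and 2885 in CD200_AIA and 440, 1024, 536, 933 and 1200 in CD105_AIA, came closest to the threshold (-1.47 from CD200_AIA; edgeR adjusted p = 0.0707). The remaining complex I mRNAs differed from CD200_AIA by -0.80 (mt-Nd1), -1.15 (mt-Nd4), -0.51 (mt-Nd4l), -0.58 (mt-Nd5) and -0.76 (mt-Nd6) on the log2 scale. For mt-Co2 and mt-Co3 of complex IV the differences were -0.62 and -0.86, and for mt-Atp8 of complex V -0.62. None of these passed the test. mt-Atp8 and mt-Atp6 share 43 bases, and mt-Nd5 and mt-Nd6 share 14 bases on opposite strands, so their counts are not fully separate.

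mt-Co1 was the exception. It encodes the catalytic subunit of cytochrome c oxidase (chromosome M, 5328 to 6872, plus strand) and was at 12853, 4890, 8195 and 15082 CPM in CD200_NI, at 6632, 8917, 12360, 10046 and 12632 in CD200_AIA, and at 7097, 13628, 12441, 10319 and 13585 in CD105_AIA. The 3 groups overlapped. The log2 difference was 0.17 ± 0.30 from CD200_AIA and 0.15 ± 0.32 from CD200_NI (SE; edgeR adjusted p = 0.78 and 0.793). Its share of all mitochondrial mRNA counts was 21.6% to 24% in CD200_NI, 15.7% to 22.1% in CD200_AIA and 28.2% to 36.4% in CD105_AIA, with no overlap of CD105_AIA with either group. mt-Nd3 went the other way, at 0.393% to 0.898%, 0.395% to 1.00% and 0.191% to 0.336% in the same order, also without overlap. mt-Cytb took 15.4% to 23.5%, 13.0% to 19.2% and 10.5% to 14.8%, separate from CD200_NI only. The shares are parts of 1 whole and show unequal levels among the 13 mRNAs, not which of them moved.

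**Figure D3:**
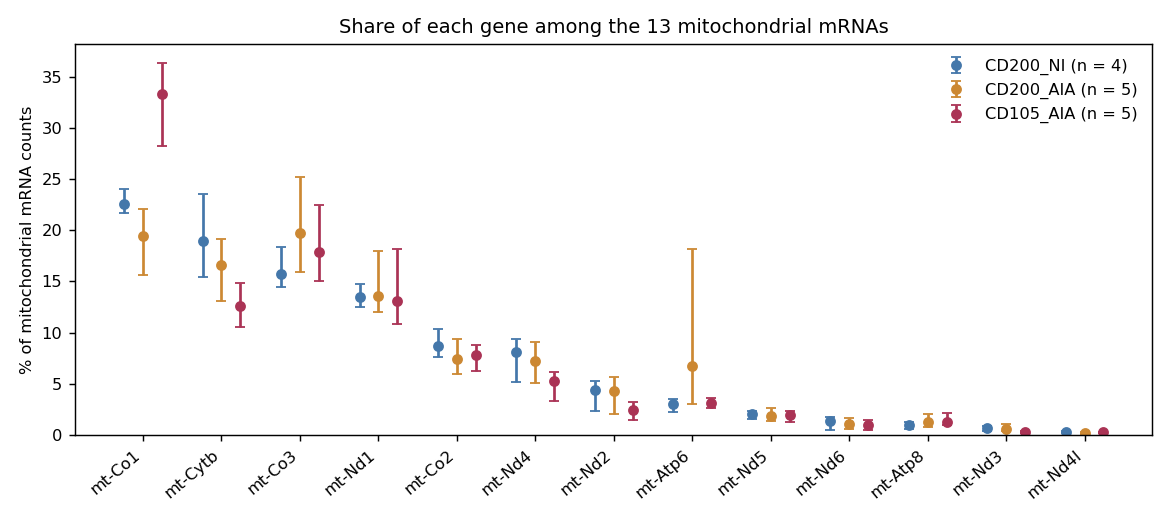
Share of each gene in the counts of the 13 mitochondrial mRNAs, as the group mean (point) with the lowest and highest library (bar), in percent. mt-Co1 takes 33.3% in CD105_AIA against 22.5% in CD200_NI and 19.4% in CD200_AIA, and the long bar of mt-Atp6 in CD200_AIA comes from library 5 at 18.2%.

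Comparing CD105_AIA with CD200_NI sets arthritic CD105+ cells against nonimmunized CD200+ cells. It shares its CD105_AIA libraries with the comparison above. Of the 83 nuclear genes, 32 were called higher, where 5.57% of all genes were, and 0 lower, where 7.63% were. No nuclear gene was lower at an unadjusted p of 0.05, as 17.3% of all genes were, or by DESeq2, and limma voom called 1 lower. By complex, 14 of 37 were called in complex I, 2 of 4 in II, 4 of 9 in III, 4 of 16 tested in IV and 8 of 17 in V. At an unadjusted p of 0.05, 53 were higher, as 11.8% of all genes were. The log2 difference was above 0 for 76 of 83, against 45.5% of all genes. The median was 1.17 against -0.24 for all genes, and it was 1.06, 0.67, 1.39, 1.01 and 1.23 for complexes I to V. CD105_AIA was separate from CD200_NI on the high side for 28 nuclear genes, where 12.5% of all genes were. Of the 32 calls, 16 held in all 9 fits that left out 1 library, and their number became 18 without library 1, 17 without library 10 and 20 without library 13. Of all genes, 1982 of 15015 were called in the full fit, and 1432 of 15707, 1400 of 14899 and 1352 of 14782 in those 3. Of the mitochondrial mRNAs, mt-Cytb alone was called, 11 of 13 had a log2 difference below 0, and the median was -0.56. None was wholly below CD200_NI, as 11.5% of all genes were. That call was lost without any 1 of libraries 1, 3, 4, 10, 11, 13 and 14. Leaving out library 2 gave 4 calls, where 1722 of 15994 genes were called.

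Complex I is assembled from 7 nuclear core subunits, which carry the flavin and the iron-sulfur clusters, and a larger number of accessory subunits. Against CD200_AIA, 0 of the 7 core genes and 2 of the 30 other genes under complex I were called higher, where 4.79% of all genes were. The median log2 differences there were 0.68 and 0.16. The 7 core genes have coding sequences of 636 to 2181 bases. In that comparison the nuclear members of at least 525 bases had a median of 0.97, and those of at most 318 bases 0.33. The part of coding length in the difference between core and other genes was not tested. Against CD200_NI, 4 of the 7 and 10 of the 30 were called higher, where 5.57% of all genes were. The median log2 differences from CD200_NI were 1.31 and 0.92. Ndufs7 and Ndufs3 had the smallest p among core genes, at 1.86 ± 0.34 and 1.52 ± 0.33, and Ndufb9 and Ndufb8 among the others, at 2.10 ± 0.40 and 1.71 ± 0.35 (SE; edgeR adjusted p = 0.00394, 0.00902, 0.00467 and 0.00675). Ndufb9 was at 416, 171, 438 and 229 CPM in CD200_NI, at 285, 767, 649, 572 and 635 in CD200_AIA, and at 1886, 1048, 681, 1745 and 1363 in CD105_AIA. Library 12, the lowest CD105_AIA library for this gene, was within the range of CD200_AIA.

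In complex II, Sdhb, the iron-sulfur subunit, was 1.04 ± 0.27 higher than in CD200_NI (SE; edgeR adjusted p = 0.0208). The flavoprotein gene Sdha differed by 0.14 and the anchor Sdhc by 0.30 on the log2 scale (edgeR adjusted p = 0.894 and 0.775). Sdha was at 126 to 680 CPM in CD105_AIA and at 170 to 572 in CD200_NI. In complex III, Uqcrfs1 was 1.96 ± 0.36 higher, Uqcr10 1.54 ± 0.44 and the core protein Uqcrc2 1.26 ± 0.37 (SE; edgeR adjusted p = 0.00394, 0.0328 and 0.0401), beside Cyc1. In complex IV, Cox5b was 1.46 ± 0.38 higher, Cox6a1 1.32 ± 0.35, Cox5a 1.56 ± 0.45 and Cox6b1 1.33 ± 0.39 (SE; edgeR adjusted p = 0.0222, 0.0262, 0.0351 and 0.0386). None of these 4 calls held in all 9 leave-one-out fits: Cox5b was called in 7, Cox6a1 in 4, Cox6b1 in 3 and Cox5a in 1. Among the other genes named here, Sdhb was called in 8, Uqcr10 in 3 and Uqcrc2 in 1, and Uqcrfs1 in all 9. Cox4i1, the subunit often taken as a marker of the complex, differed by 0.59 (edgeR adjusted p = 0.255).

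In complex V, the F1 part holds the catalytic sites. Against CD200_AIA, 2 of its 5 genes and 2 of the other 12 were called higher, where 4.79% of all genes were. Against CD200_NI, 3 of the 5 and 5 of the 12 were called higher, where 5.57% of all genes were. The smallest p belonged to Atp5g1, 1.82 ± 0.29 higher, Atp5o of the peripheral stalk, 2.01 ± 0.35, Atp5d, 1.48 ± 0.30, and Atp5f1 (SE; edgeR adjusted p = 0.00168, 0.00273 and 0.00662 for the first 3). Atp5g1, Atp5g2 and Atp5g3 encode the same mature subunit c. Atp5g3 was 1.39 ± 0.35 higher (SE; edgeR adjusted p = 0.0197), whereas Atp5g2 was 59.2 to 133 CPM in CD105_AIA and 71.0 to 180 in CD200_NI, with a log2 difference of -0.23 (edgeR adjusted p = 0.788).

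**Figure D4:**
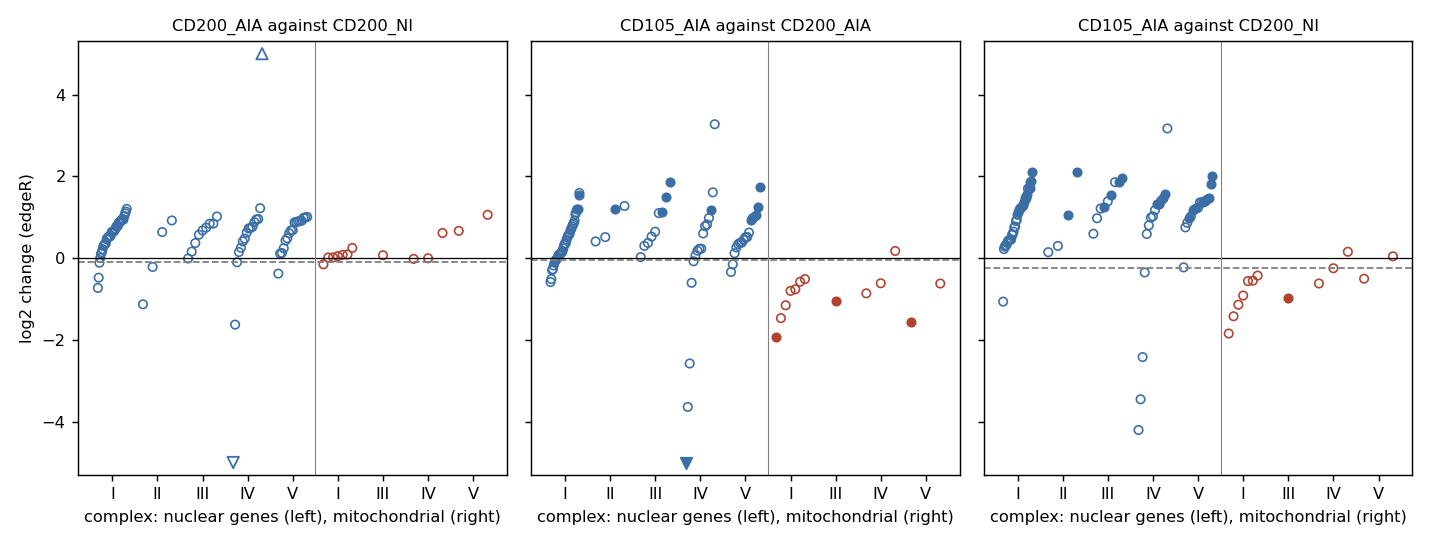
Log2 difference of each tested gene by complex, for nuclear (blue) and mitochondrial genes (red), in the 3 comparisons; filled symbols passed the test, triangles mark values beyond the axis, the dashed line is the median of all genes, and Cox8b is left out of the right panel, where it has no count in either group. Nuclear genes lie mostly above the dashed line in all 3 panels, and mitochondrial genes lie below it in the middle panel except mt-Co1.

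Several complex IV subunits exist in a broad form and in forms limited to some tissues. Cox6b2, a form known from testis (chromosome 7, 4751792 to 4753094, minus strand), was at 7.21, 0, 12.7 and 36.2 CPM in CD200_NI, at 9.51, 17.4, 19.3, 0 and 19.2 in CD200_AIA, and at 154, 114, 66.9, 155 and 143 in CD105_AIA. All CD105_AIA libraries lay above the others. The log2 differences of 3.27 ± 1.26 and 3.17 ± 1.37 did not pass edgeR's test (SE; adjusted p = 0.108 and 0.141), while DESeq2 called the first. Scaled by transcript length, Cox6b2 made up 9.95% to 12.8% of Cox6b1 and Cox6b2 together in CD105_AIA, at most 2.65% in CD200_AIA and at most 7.41% in CD200_NI.

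Cox8b, the form of heart and skeletal muscle (chromosome 7, 140898945 to 140900446, minus strand), had counts only in CD200_AIA, at 16.2, 0, 14.7, 15.4 and 40 CPM. With 1135 counts in 4 libraries and none in the others, it was at least 405-fold higher in CD200_AIA than in CD200_NI and at least 456-fold higher than in CD105_AIA, taking 3 counts per group as the floor. The second difference was called (edgeR adjusted p = 0.0294) and the first was not (adjusted p = 0.636), although both rest on groups at 0. In the leave-one-out fits the gene was tested in 6 of 10 and called in 4. The 20 skeletal muscle markers summed to 559 to 1845 CPM in CD200_AIA, 275 to 1231 in CD200_NI and 74.2 to 187 in CD105_AIA. In CD200_AIA all 20 had a count, and in CD200_NI Myh1, Myh2 and Mb were at 0. In CD105_AIA 11 of the 20 had none, Ckm, Myh4, Atp2a1 and Mb among them. The part of muscle RNA in the Cox8b values was not tested.

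The other restricted forms were low. Cox7a1 and Cox6a2, also muscle forms, reached at most 26.9 and 25.8 CPM in any library, and Cox4i2, known from lung, at most 24. Ndufa4l2, induced by low oxygen, ranged from 0 to 47.7 CPM, and none of the 4 passed the test in any comparison. Cox7b2 had 14 counts, all in library 11, and Cox8c had none in any library. These last 2 were the nuclear members not tested.

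**Figure D5:**
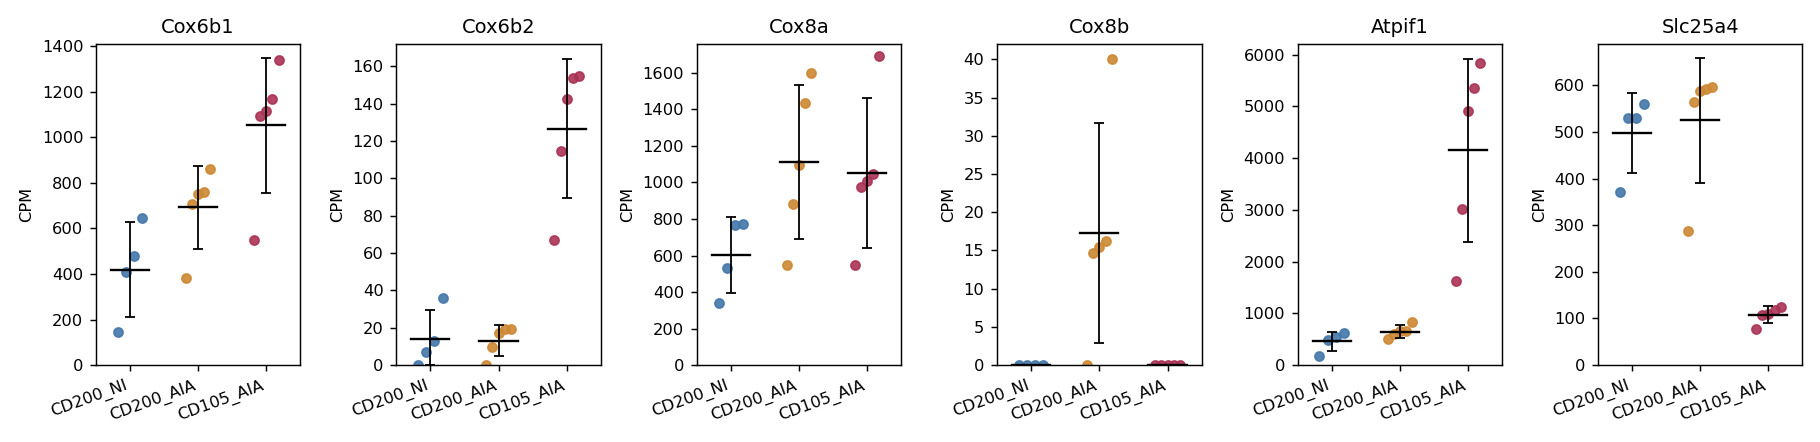
CPM per library of the broad and restricted forms of subunits VIb (Cox6b1, Cox6b2) and VIII (Cox8a, Cox8b) and of Atpif1 and Slc25a4, 1 point per library, with a line at the group mean and bars of 1 SD cut at 0. Cox6b2 reaches 66.9 to 155 CPM in CD105_AIA, Cox8b has counts in 4 CD200_AIA libraries only, and Atpif1 and Slc25a4 lie on opposite sides of the CD200 groups.

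Neighbouring pathways were read from 6 gene lists. Among 13 genes of cytochrome c, carriers and regulators of the inner membrane, 9 were tested, and 3 were called higher and 1 lower in CD105_AIA against CD200_AIA, and 6 higher and 1 lower against CD200_NI. Of all genes, 4.79% were called higher and 6.48% lower in the first comparison, and 5.57% and 7.63% in the second. Atpif1, the inhibitor of ATP hydrolysis by complex V, was at 4147 ± 1770 CPM in CD105_AIA against 649 ± 124 and 458 ± 192 in CD200_AIA and CD200_NI (SD). Its log2 differences were 2.68 ± 0.38 and 3.18 ± 0.43 (SE; edgeR adjusted p = 0.000855 and 0.00056). Ucp2, an uncoupling protein homologue, was 4.2 ± 0.64 and 4.07 ± 0.69 higher (SE; edgeR adjusted p = 0.0013 and 0.0026). Slc25a4, the ADP/ATP carrier form of heart and muscle, was lower, at -2.29 ± 0.25 and -2.21 ± 0.26 on the log2 scale (SE; edgeR adjusted p = 0.000117 and 0.000211). The other abundant carrier form, Slc25a5, was 0.81 and 1.59 higher, and only the second passed (edgeR adjusted p = 0.0815 and 0.00586).

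Of 18 citric acid cycle and pyruvate dehydrogenase genes, 3 were called higher against CD200_AIA and 6 against CD200_NI, and 0 lower in either, where 4.79% and 5.57% of all genes were higher. At an unadjusted p of 0.05, 1 was lower against CD200_AIA. Idh3a was 2.02 and 2.01 higher, Mdh2 1.56 and 1.62, and citrate synthase (Cs) 1.72 and 1.75 (edgeR adjusted p = 0.00441 and 0.00607, 0.00527 and 0.00562, 0.015 and 0.0176). Pdhb of pyruvate dehydrogenase was 1.27 higher against CD200_NI (edgeR adjusted p = 0.0108). Of the 18 glycolysis genes tested, 0 were called higher in either comparison. Called lower were 1 against CD200_AIA (Ldhb) and 2 against CD200_NI (Ldhb and Pkm), where 6.48% and 7.63% of all genes were. At an unadjusted p of 0.05, 3 and 1 were higher and 5 and 6 lower, where 15.5% and 17.3% of all genes were lower. Ldhb was at 0.672 ± 1.5 CPM in CD105_AIA against 66.3 ± 49.2 in CD200_AIA and 42.1 ± 29.9 in CD200_NI (SD).

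Of 47 assembly factors, 1 was called higher and 1 lower against CD200_AIA, and 2 higher and 0 lower against CD200_NI, where none was lower at an unadjusted p of 0.05 either. Of all genes, 11.3% and 13.2% were called in either direction. Cox17, a copper chaperone of complex IV, was 1.68 ± 0.37 and 2.13 ± 0.41 higher (SE; edgeR adjusted p = 0.0121 and 0.00519). Cox14 was lower against CD200_AIA, at -0.86 on the log2 scale (edgeR adjusted p = 0.0352), and Cox20 was 1.66 higher against CD200_NI (0.0472). Among 20 genes of mitochondrial DNA copying, transcription and RNA processing, Hsd17b10, a subunit of mitochondrial RNase P, was called against CD200_NI (1.32 ± 0.35; edgeR adjusted p = 0.0258) and none against CD200_AIA, where none passed an unadjusted p of 0.05 either. Tfam, which packages mitochondrial DNA, differed by 0.44 and 0.47 (edgeR adjusted p = 0.515 and 0.49). None of 10 regulators of mitochondrial biogenesis was called, and at an unadjusted p of 0.05, 1 was lower against CD200_AIA and 1 higher and 1 lower against CD200_NI. In CD200_AIA against CD200_NI no gene of the 6 lists passed edgeR's test, and at an unadjusted p of 0.05 3 of the carrier list, 2 of the assembly factors and 1 in each of the other 4 were higher and 0 were lower.

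Each library's log2 levels of these genes were set against the median of the other libraries of its group. Libraries 2 and 12 had the highest rank correlations of these differences with coding length, at Spearman's rho of 0.669 and 0.649. In the other libraries rho lay between -0.39 (library 4) and 0.333 (library 8). Relative to the other libraries of its group, the 28 members with coding sequences of at most 318 bases had a median log2 level of -1.63 in library 2 and -1.29 in library 12, while the 27 members of at least 525 bases had medians of 0.27 and -0.48. Between CD105_AIA and CD200_AIA the median log2 difference was 0.33 for the short and 0.97 for the long members. Across the 83 members, Spearman's rho between the log2 difference and coding length was 0.447 in that comparison, 0.193 against CD200_NI and -0.334 between CD200_AIA and CD200_NI. Across all 12122 genes with a coding length it was -0.126, -0.196 and -0.165, as descriptions over genes that share libraries. Without libraries 2 and 12, 20 nuclear members were called against CD200_AIA, 19 of them higher, and 37 against CD200_NI, all higher. Of all 15862 genes tested in that fit, 1511 and 1480 were called.

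The promoters of the nuclear genes were read because many of these genes were called in the same direction. NRF1 is a transcription factor long known for sites at respiratory chain promoters. RefSeq promoters (GRCm38.p6; 250 bases before to 50 after the start) were found for 68 of the 85 nuclear genes. The 17 not matched included Cyc1, Ndufb9, Sdhc and Uqcrc2. In 55 of the 68, a run of bases after the start was found somewhere in the gene's principal GENCODE transcript. That checks the orientation and does not place the start, which is less certain still in the rest. The NRF1 consensus, GCGC and GCGC with an A and any base between them, was searched on both strands. It occurred in 16 of the 68 (23.5%) and in 6.81% of 16939 protein-coding promoters of the same length. Among the 30 matched members called higher in CD105_AIA in either comparison the share was 26.7%, and among the 38 others it was 21.1%. The ETS letters CCGGAAG occurred in 22.1% of the 68 and 12.3% of all promoters, the ERR letters TCAAGGTCA in 2.94% and 0.313%, the YY1 letters AAGATGGCG in 8.82% and 2.06%, and CCAAT in 44.1% and 38.8%. Among the 30 called and the 38 others, the ETS share was 23.3% and 21.1%, and the ERR share 6.67% and 0.0%. The YY1 share was 10.0% and 7.89%, and CCAAT went the other way, at 33.3% and 52.6%. The search allowed overlaps between motifs. These are matches of letters and not sites shown to be bound.

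The NRF1 matches of 6 members called higher in CD105_AIA are shown with 10 bases on each side, 5′ to 3′ on the strand of the gene, with the match in capitals. They are given to show the letters that met the search. The first base of the match lies 79 bases before the RefSeq start in Sdhd, 117 before it in Cox6a1, 26 in Ndufa5, 30 in Ndufa8 and 16 in Ndufs6, and it is base 10 of the transcript in Atp5o. Cox6a1 had a further match upstream, and Atp5g3 and Uqcrc1 had matches after the start.
Sdhd (chr9:50603909-50603938, minus strand): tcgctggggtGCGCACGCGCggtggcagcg
Cox6a1 (chr5:115349056-115349085, minus strand): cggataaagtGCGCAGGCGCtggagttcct
Ndufa5 (chr6:24527697-24527726, minus strand): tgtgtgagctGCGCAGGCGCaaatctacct
Ndufa8 (chr2:36049349-36049378, minus strand): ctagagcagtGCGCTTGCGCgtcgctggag
Ndufs6 (chr13:73328479-73328508, minus strand): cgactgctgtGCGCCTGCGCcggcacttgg
Atp5o (chr16:91931602-91931631, minus strand): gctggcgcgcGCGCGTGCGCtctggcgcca
Ndufa8 was 1.47 ± 0.32 higher in CD105_AIA than in CD200_NI, Ndufa5 1.13 ± 0.31 and Ndufs6 1.28 ± 0.39 (SE; edgeR adjusted p = 0.00965, 0.0301 and 0.0462), and they were called in 9, 4 and 2 of the 9 leave-one-out fits. Against CD200_AIA they differed by 0.82, 0.10 and 0.51, and none of the 3 passed the test. Ndufs6 shares 30 exon bases with Mrpl36 on the other strand, and a near copy, Ndufs6b, had 125 counts in all libraries.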

How the data were processed

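RNA of 200 to 500 sorted cells was amplified with a SMART-seq v4 kit with ERCC spike-ins, per the labels' protocols. Per the submitters' processing notes, cutadapt, HISAT2, StringTie and edgeR were used with GRCm38 (mm10); versions and the strand setting are not given in the sources used here. The deposited table holds raw counts per gene. A second deposited table, also of whole counts, was not used. Ensembl IDs were matched to GENCODE M21 (47310 of 47729); 92 spike-in rows stayed out of library sizes. Genes were filtered (filterByExpr, minimum count 10; 15015 kept), scaled by TMM and tested with edgeR 4.0.16 (R 4.3.3) by the quasi-likelihood F test in 1 fit of the 3 groups, with Benjamini-Hochberg adjustment over all genes tested. "Called" means an adjusted p under 0.05. CPM use gene counts and TMM factors, and 3 counts equal 0.171 to 0.914 CPM. SE is the log2 difference divided by the root of F. Exon overlap and length come from GENCODE. On counts simulated for CD105_AIA against CD200_AIA (14273 genes, 50 changed per fold size), the fit recovered 0% of 2-fold, 8% of 4-fold, 24% of 8-fold and 38% of 16-fold changes. The changed genes were drawn at random from all genes above a minimum level, each with its own spread. They were not drawn from the members alone, so these shares do not give the recovery for members. A gene that was not called may still differ. Alternatives used limma 3.58.1, DESeq2 1.42.0, other scalings and filters, and libraries left out. Named genes were all 13 mitochondrial genes, every called member (over 12, up to 4 per complex and direction by p, otherwise the smallest p per complex), the restricted forms, the member highest per kilobase in each complex, and up to 3 called genes per pathway list; Sdha, Sdhc, Atp5g2, Atp5g3, Atp5h, Ndufa5, Ndufa8, Ndufb6, Ndufs6, Slc25a5 and Tfam were named after their values were seen. The members and lists were chosen with earlier results of these data known. The columns of all 14 libraries were mapped by name.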

Additional observations from a re-analysis of the deposited data

Results flagged for a closer look

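Within groups, 151 sets of member levels were checked for a library far from the others, and 11 had one; chance alone gives about 1 in 20. In CD105_AIA, library 10 was high for Ndufa9 (435 CPM against a median of 279 in the others). Library 12 was low for Ndufa2 (430 against 1060) and high for mt-Co3 (6636 against 5730) and Cox4i2 (5.17, the others at 0). Library 11 was high for Cox6a2 (2.22) and Cox7a1 (3.24), and library 14 had no count of Ndufa4l2 (0 against 11.8). In CD200_AIA, library 5 was low for Atp5o (268 against 534), library 6 high for Ndufs3 (326 against 159) and library 9 alone in having Cox4i2 (1.58). In CD200_NI, library 2 was high for Uqcrc1 (638 against 150).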

How the results depend on the processing

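For CD200_AIA against CD200_NI, 0 nuclear members were called, and DESeq2 and limma voom gave 1 each. The mitochondrial median of 0.07 became -0.094 with RLE size factors, -0.12 with DESeq2, -0.26 without libraries 2 and 12 (a choice made after seeing the data), and ranged from -0.263 to 0.380 with 1 library left out (negative without library 2, 3, 7 or 9: -0.263, -0.072, -0.121 and -0.064). For CD105_AIA against CD200_AIA, the 12 nuclear calls became 0 with spike-in library sizes, 29 with limma voom and 20 without libraries 2 and 12, and ranged from 4 to 14 when 1 library was left out. The 3 mitochondrial calls became 0 with spike-in library sizes, 0 without haemoglobin and mitochondrial counts in the library sizes, 0 with no filter, 5 with DESeq2, 10 with limma voom and 7 without the libraries over 80% spike-ins, and ranged from 0 to 4 with 1 library left out. Of all genes, the main fit called 1692 of 15015, spike-in library sizes 545, limma voom 4536 and library sizes without haemoglobin and mitochondrial counts 1679. The fit with no filter called 1160 of 25864 and DESeq2 3538. Without libraries 2 and 12 the number was 1511 of 15862, and without the libraries over 80% spike-ins 1970 of 15843. With 1 library left out it ranged from 1090 to 1713. Spike-in library sizes turned the mitochondrial median to 0.25, mt-Cytb to 0.059 and mt-Atp6 to 0.16. Against CD200_NI, the 32 nuclear calls became 0 with spike-in library sizes and 51 with limma voom, and ranged from 17 to 43 with 1 library left out. The 1 mitochondrial call became 3 with RLE size factors, 0 with spike-in library sizes, 0 without haemoglobin and mitochondrial counts, 0 with no filter, 2 with the strict filter (10 CPM in 4 libraries), 4 with DESeq2, 4 with limma voom, 4 without the libraries over 80% spike-ins and 3 without libraries 2 and 12, and ranged from 0 to 4 with 1 library left out. Of all genes, the main fit there called 1982 of 15015, RLE size factors 2099, spike-in library sizes 278 and limma voom 4900. Without haemoglobin and mitochondrial counts the number was 1976. The fit with no filter called 1357 of 25864, DESeq2 4039, and the strict filter 1838 of 10548. Without libraries 2 and 12 it was 1480 of 15862, and without the libraries over 80% spike-ins 2883 of 15843. With 1 library left out it ranged from 1308 to 1762. Spike-in library sizes turned the mitochondrial median to 0.77 and mt-Cytb to 0.28. The cause of these shifts was not tested. No paired analysis was possible because the labels do not say which libraries, if any, came from the same animal. Spike-ins taking most counts of libraries 2, 5 and 6 limit the depth for genes there.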
